A study of Homo sapiens with 12 samples.

Results

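Cholesterol and fatty acids are built from acetyl-CoA in the cytosol and the endoplasmic reticulum. The SREBP transcription factors switch the enzymes on when sterols are scarce, SCAP escorts the SREBP precursors to the Golgi for cleavage, and the INSIG proteins hold them back. When oxysterols accumulate, the LXR receptors raise cholesterol efflux instead. Many cancer cells make much of their fatty acid themselves. The genes described here are 37 members of this system, chosen by symbol from the 58381 genes of the count table. They comprise 5 regulators of SREBP, 7 enzymes of the early (mevalonate) steps, 11 enzymes from squalene to cholesterol, 3 sterol transport genes, 8 genes of fatty acid synthesis and 3 LXR targets. All 37 passed the filter on low counts, as did 15836 genes in all.

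The members were measured by RNA sequencing in Hs578T and MDA-MB-231 cells, both triple negative breast cancer cell lines, with and without the hyaluronan receptor CD44. There were 4 groups of 3 libraries: Hs578T CD44 WT, Hs578T CD44 KO, MDA-MB-231 CD44 WT and MDA-MB-231 CD44 KO. Cells of all groups carried a doxycycline-inducible Cas9 from a lentivirus, under puromycin selection. CD44 KO cells received guide RNAs to exons 1 and 5 of CD44 and were sorted as CD29+/CD44-, whereas CD44 WT cells received transfection reagent only and were sorted as CD29+/CD44+. The sorted cells are populations rather than clones. All cells were kept in 1% serum for 24 h before RNA was taken. Nothing in the labels ties the 3 libraries of a group to separate cultures, so p-values measure the spread between libraries, which may be technical. All 4 groups shared 1 estimate of the spread per gene, so a p-value for either line also carries the spread of the other line. In bulk RNA, fewer cells expressing a gene and less RNA per cell cannot be told apart.

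Libraries held 10257586 to 19725543 counts, of which 0.861% to 2.53% were mitochondrial. Levels below are CPM, the counts of a gene relative to library size after TMM scaling. CD44 itself lay at 494 to 527 CPM in the unedited Hs578T libraries and at 24.9 to 28.6 CPM in the edited ones. In MDA-MB-231 these ranges were 360 to 363 CPM and 30.0 to 40.3 CPM, and all 12 libraries matched their labels. Of the markers, VIM (vimentin, a mesenchymal filament) ranged from 3730 to 7262 CPM over all libraries. ESR1 and CDH1 were at most 1.15 and 0.971 CPM and PGR had no count. EPCAM was at most 0.0853 CPM in Hs578T and 13.7 to 22.2 CPM in MDA-MB-231.

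Promoters are shown for SCD and NSDHL, which passed the test in Hs578T, and for SREBF2. FASN, which also passed, had no promoter listed and was not searched. Of the members with a promoter listed, only SREBF2 held the exact letters TCACNCCAC, a form of the sterol element through which SREBP proteins bind. The bases come from RefSeq (GRCh38.p14), on the plus strand, and stop before the first base of the gene in the annotation of the count table. SCD, the desaturase that makes oleate, is shown at chr10:100346983-100347123, NSDHL, a sterol dehydrogenase, at chrX:152830813-152830966, and SREBF2, the SREBP gene best known for sterol synthesis, at chr22:41832855-41833078. Capitals mark CCAAT boxes on either strand (ATTGG is the reverse complement) and, in SREBF2, also the sterol element TCACNCCAC.
SCD: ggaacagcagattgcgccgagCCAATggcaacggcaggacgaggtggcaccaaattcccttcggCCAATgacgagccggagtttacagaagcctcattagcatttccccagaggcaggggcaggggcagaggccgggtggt
NSDHL: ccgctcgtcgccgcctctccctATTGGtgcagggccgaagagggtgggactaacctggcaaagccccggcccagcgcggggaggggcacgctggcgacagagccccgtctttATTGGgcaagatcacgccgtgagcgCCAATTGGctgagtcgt
SREBF2: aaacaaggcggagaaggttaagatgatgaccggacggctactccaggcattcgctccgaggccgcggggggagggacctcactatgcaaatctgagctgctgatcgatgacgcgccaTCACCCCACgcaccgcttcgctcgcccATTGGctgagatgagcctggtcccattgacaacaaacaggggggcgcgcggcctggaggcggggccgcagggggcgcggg

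The RefSeq promoter table held 32 of the 37 members, and FASN, ABCG1, SQLE, ACAT2 and FDFT1 were absent from it. In the 250 bases before any of their listed starts, 22 of the 32 (68.8%) held CCAAT, against 37% of all 27305 genes in the table. The GC box GGGCGG was present in 31 of the 32 (96.9%), against 46.2% of all genes. The element TCACNCCAC was present in 1 of the 32 (3.13%), against 1.09% of all genes. Both strands were searched, and hits on opposite strands can overlap, as they do in NSDHL. Members had 1.38 listed starts per gene and all genes 1.29. The members all passed the filter on low counts, whereas the genes of the promoter table were not chosen by expression. The part of this in the shares was not tested. These are matches of exact letters and say nothing of factor binding. Other forms of the sterol element were not searched.

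In Hs578T, 3 of the 37 members passed the test for CD44 KO. FASN and SCD, central to making saturated fatty acids and oleate, rose by 1.61-fold and 1.54-fold, and NSDHL of the cholesterol branch fell. These 3, 2 higher and 1 lower, had an adjusted p under the threshold of 0.01 (quasi-likelihood test of edgeR, adjusted over all genes after Benjamini-Hochberg). Over all genes tested 7.51% were called, 3.64% higher and 3.86% lower. The median log2 fold change of the 37 members was 0.03, beside -0.00162 over all genes, with 19 members above 0 and 18 below. Libraries of CD44 KO and CD44 WT did not overlap for 17 of 37 members (10 higher, 7 lower), against 37.3% of all genes, and an unadjusted p under 0.05 was found for 12 of 37, against 27.4% of all genes.

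FASN (ENSG00000169710.8, chromosome 17, 82078333 to 82098332, minus strand) encodes fatty acid synthase, which builds palmitate. FASN stood at 1312, 1289 and 1509 CPM in the Hs578T CD44 WT libraries and at 2092, 2667 and 1856 CPM in the CD44 KO libraries. Every CD44 KO library lay above every CD44 WT library, and replicate 2 was the highest of the 3. The group means were 1370 ± 121 CPM and 2205 ± 418 CPM (SD over 3 libraries), and the log2 fold change was 0.69 (SE 0.115, adjusted p = 0.000805), or 1.61-fold (95% confidence interval 1.36 to 1.91). Without replicate 2 of CD44 KO the log2 fold change was 0.53 (adjusted p = 0.00387), still called.

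SCD (ENSG00000099194.5, chromosome 10, 100347124 to 100364834, plus strand) was the most abundant member per kb of exon in both lines. SCD stood at 4376, 4674 and 4434 CPM in Hs578T CD44 WT and at 6361, 8372 and 5998 CPM in CD44 KO. The groups did not overlap, and replicate 2 of CD44 KO was again the highest. The log2 fold change was 0.62 (SE 0.135, adjusted p = 0.00587), or 1.54-fold (95% confidence interval 1.26 to 1.88). The call was lost without any of 5 libraries. Without replicate 1, 2 or 3 of CD44 WT the adjusted p was 0.0321, 0.0209 and 0.0169, and without replicate 1 or 2 of CD44 KO it was 0.0117 and 0.0402. The log2 fold change without replicate 2 of CD44 KO was 0.46.

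NSDHL (ENSG00000147383.10, chromosome X, 152830967 to 152869729, plus strand) removes a C4 carboxyl group from sterol intermediates. NSDHL stood at 44.7, 45.1 and 40.3 CPM in Hs578T CD44 WT and at 32.0, 26.9 and 31.5 CPM in CD44 KO. The groups did not overlap. The log2 fold change was -0.53 (SE 0.111, adjusted p = 0.00452), or 1.44-fold lower. NSDHL lost the call without replicate 1 or 2 of CD44 WT (adjusted p = 0.0233 and 0.0231) and without replicate 1, 2 or 3 of CD44 KO (0.0117, 0.0334 and 0.0127), at log2 fold changes from -0.45 to -0.57.

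**Figure D1:**
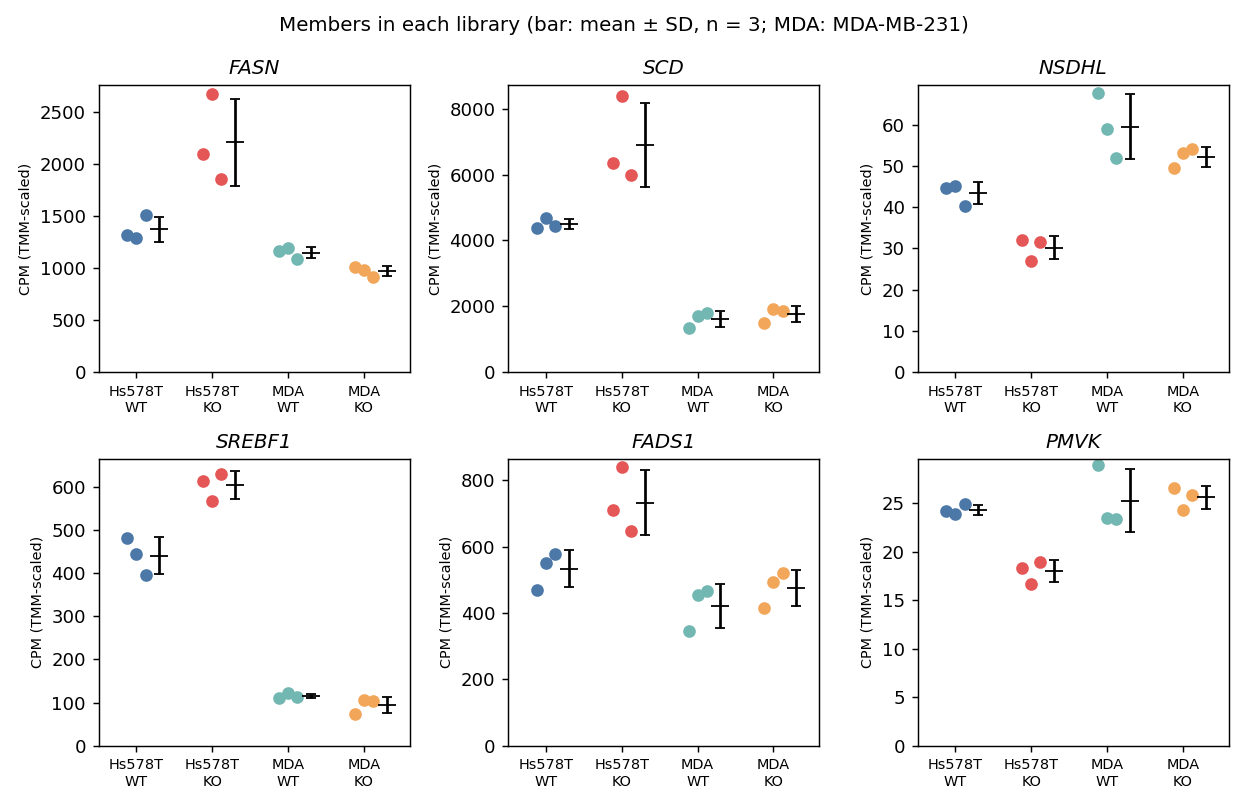
CPM (TMM-scaled, from 0) of 6 members in each of the 12 libraries, with points for libraries in the 4 groups and black bars for the mean ± SD (n = 3). FASN and SCD lie higher and NSDHL lower in Hs578T CD44 KO than in Hs578T CD44 WT, and the MDA-MB-231 groups lie closer together.

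SREBF1, FADS1 and PMVK missed the threshold. SREBF1, which encodes the SREBP factor most tied to fatty acid genes, stood at 481, 445 and 397 CPM in Hs578T CD44 WT and at 615, 567 and 631 CPM in CD44 KO (log2 fold change 0.45, SE 0.118, adjusted p = 0.0170). FADS1, the delta-5 desaturase of polyunsaturated fatty acids, gave 0.46 (adjusted p = 0.0281), with 471 to 580 CPM in CD44 WT and 649 to 841 CPM in CD44 KO. PMVK, phosphomevalonate kinase, gave -0.44 (adjusted p = 0.0160), with 23.9 to 24.9 CPM and 16.7 to 18.9 CPM. None of these groups overlapped. DESeq2 called SREBF1 (adjusted p = 0.00300) and PMVK (adjusted p = 0.00581), and did not call FADS1. Leaving out replicate 1 of MDA-MB-231 CD44 KO made SREBF1 pass (adjusted p = 0.00250), and leaving out replicate 1 of MDA-MB-231 CD44 WT made PMVK (0.00395) and FADS1 (0.00755) pass. The latter library stood apart from its group, with a chi-square per degree of freedom of 23.5 and 36.2 against the other CD44 WT libraries of MDA-MB-231 and of 6.74 between those. It also had the highest mitochondrial share (2.53%) and the highest share of counts in the top 10 genes (5.26%) of all 12 libraries, and without it 1685 genes rather than 1189 were called in Hs578T.

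Among the other regulators in Hs578T, SREBF2 gave a log2 fold change of 0.14 and INSIG1 0.14, SCAP -0.08 and INSIG2 -0.26, with adjusted p from 0.315 to 0.679. Of the mevalonate enzymes ACAT2, HMGCS1, MVK, MVD, IDI1 and FDPS, which lead from acetyl-CoA to farnesyl diphosphate, log2 fold changes lay between -0.24 for HMGCS1 and 0.17 for IDI1. The later enzymes included SQLE, squalene epoxidase, at -0.29 (adjusted p = 0.0748) and HSD17B7 at -0.35 (adjusted p = 0.0904). FDFT1, LSS, CYP51A1, TM7SF2, MSMO1, SC5D and DHCR7 lay between -0.16 for TM7SF2 and 0.21 for LSS, and EBP, at 3 to 24 counts a library, gave -0.51 (adjusted p = 0.554).

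The sterol enzymes, 18 genes of both branches, were summed in each library as a plain total. The summed level was 3148 to 3710 CPM in Hs578T CD44 WT and 3180 to 3573 CPM in CD44 KO, a ratio of group means of 0.958. The 8 fatty acid genes summed to 7159 to 7726 CPM in CD44 WT and 9789 to 13331 CPM in CD44 KO, a ratio of 1.49. SCD and FASN made up most of that sum, and the median log2 fold change of the 8 genes was 0.27. The SREBP regulators summed to 1538 to 1608 CPM and 1788 to 1871 CPM, a ratio of 1.16.

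**Figure D2:**
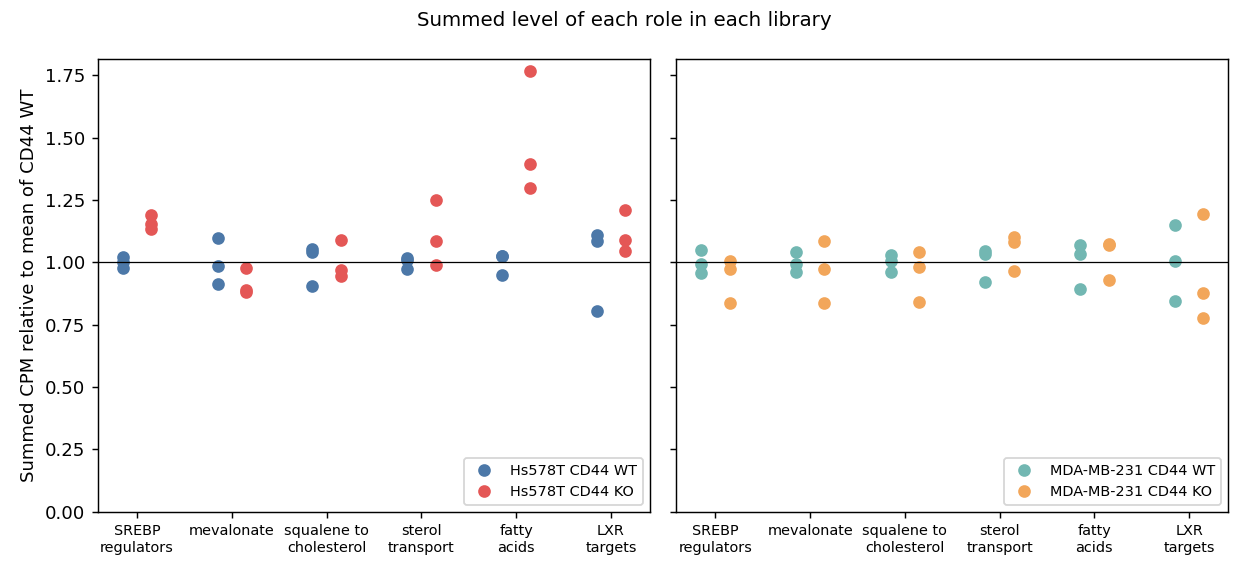
Summed CPM of each role in each library, divided by the mean of the CD44 WT libraries of the same line (line at 1, axis from 0); points are libraries, left panel Hs578T, right panel MDA-MB-231. The fatty acid sum, most of it SCD and FASN, lies above all Hs578T CD44 WT libraries in the 3 Hs578T CD44 KO libraries. Its ratio of means was 1.49, and the MDA-MB-231 ratio was 1.02.

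The remaining fatty acid genes of Hs578T were not called. ACLY, which makes cytosolic acetyl-CoA from citrate, gave 0.27 (adjusted p = 0.0867), ELOVL6 0.26, ACSS2 0.21 and FADS2 0.20. Of the transport genes, STARD4 gave 0.36 (adjusted p = 0.161), NPC1 0.15 and NPC2 -0.12. Of the LXR targets, the efflux transporter ABCG1 gave 0.52 (adjusted p = 0.104), ABCA1 0.12 and MYLIP, a ligase that degrades lipoprotein receptors, -0.40 (adjusted p = 0.0969).

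ACACA, acetyl-CoA carboxylase, cannot be read from these counts. It had 2 to 50 counts in any library over 13008 bases of exon (chromosome 17, 37084988 to 37406818). Its neighbours TAF15, MRPL45 and PSMB3, chosen after their values were seen and used by nearly every cell, had at most 1, 4 and 1 counts in any library. The cause was not tested. CYP51A1 shares 78.8% of its exonic bases with LRRD1 on the same strand, and fragments in shared bases were not counted, so its level is a lower limit.

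In MDA-MB-231, no member was called with edgeR or with DESeq2. Over all genes tested 4.62% were called. An unadjusted p under 0.05 was found for 7 of 37 members, against 23.4% of all genes, and the CD44 KO and CD44 WT libraries did not overlap for 8 members (1 higher, 7 lower), against 25.5% of all genes. The median log2 fold change was -0.08, beside -0.01 over all genes, with 17 members above 0 and 20 below. The smallest adjusted p were those of NPC2, a lysosomal sterol carrier, with 146 to 190 CPM in CD44 WT and 117 to 140 CPM in CD44 KO (log2 fold change -0.31, adjusted p = 0.0856), and of ABCG1.

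ABCG1 was near the floor in MDA-MB-231, with 4 to 8 counts in each CD44 WT library and 0 to 3 in each CD44 KO library (adjusted p = 0.0998). MSMO1 gave 0.30 (adjusted p = 0.113), DHCR7 -0.22 (0.127) and EBP -0.42 (0.185). FASN stood at 1157, 1193 and 1087 CPM in CD44 WT and 1006, 982 and 915 CPM in CD44 KO. These 6 libraries did not overlap, and the log2 fold change was -0.24 (95% confidence interval -0.49 to -0.00, adjusted p = 0.213). SCD stood at 1348, 1709 and 1779 CPM and at 1478, 1930 and 1846 CPM, which overlapped (0.12, 95% confidence interval -0.17 to 0.41, adjusted p = 0.651). NSDHL gave -0.19 (95% confidence interval -0.42 to 0.04).

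**Figure D3:**
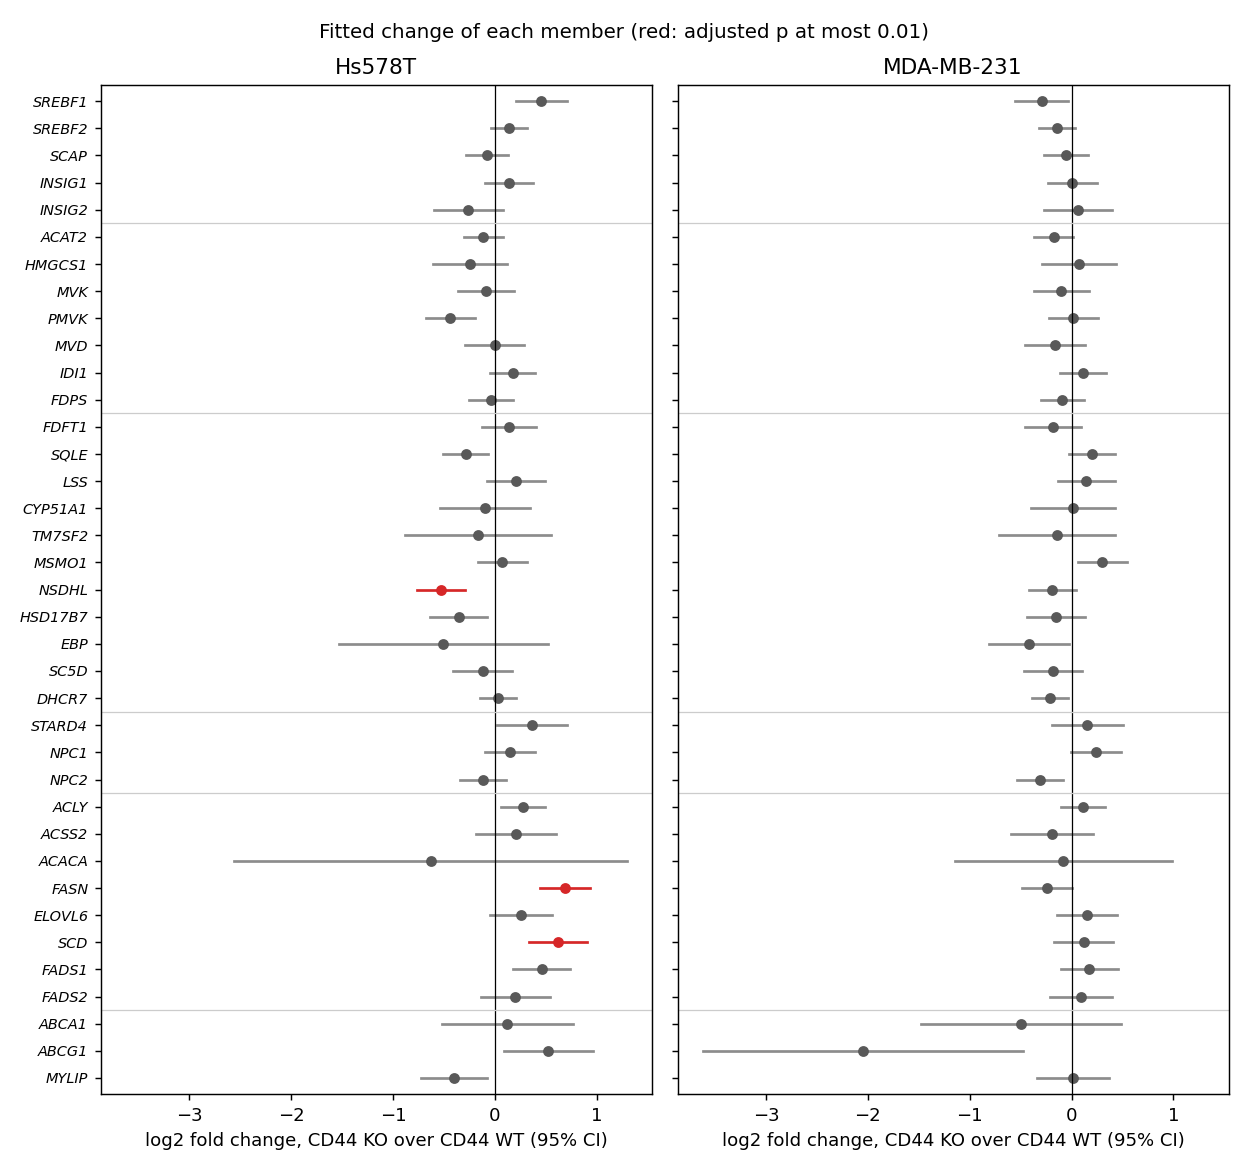
CD44 KO relative to CD44 WT as a log2 fold change (x axis), with the 95% confidence interval for each of the 37 members, in order of role, in Hs578T (left) and MDA-MB-231 (right). The 3 red points, FASN, SCD and NSDHL in Hs578T, passed an adjusted p of 0.01, no member did in MDA-MB-231, and the widest intervals belong to weakly counted genes.

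The members of a library tended to be low or high together in both lines. In MDA-MB-231, replicate 1 of CD44 KO was the lowest of its group for 32 of 37 members, where it was lowest for 41.9% of all genes. Replicate 1 of MDA-MB-231 CD44 WT was lowest for 23, where it was lowest for 42.5% of all genes. In Hs578T CD44 KO, replicate 2 was highest for 23 of 37 (36.5% of all genes) and replicate 3 was lowest for 23 (30.7% of all genes). In Hs578T CD44 WT, replicate 1 was lowest for 19 (34.8% of all genes). Leaving out replicate 1 of MDA-MB-231 CD44 KO moved the median log2 fold change of the members there from -0.08 to -0.01, and called no member. That library had the fewest genes with a count of all 12, 19599, while its mitochondrial share (1.08%) and its 12356076 counts were within the range of the others. The part of this in the members' values was not tested.

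The effect of CD44 KO was compared between the lines as a difference of log2 fold changes, Hs578T minus MDA-MB-231. FASN was the only member called (0.93, SE 0.162, adjusted p = 0.00196), where 4.12% of all genes were called. Hs578T moved up by 0.69 and MDA-MB-231 stood at -0.24, and the difference stayed called without any single library. SREBF1 gave 0.75 (adjusted p = 0.0115), just above the threshold, and was called by DESeq2 (adjusted p = 0.000884). With a block by sets of consecutive library numbers from the labels, each holding 1 library of every group, SREBF1 was called for the difference (adjusted p = 0.00469) and for CD44 KO in Hs578T (adjusted p = 0.00714). ABCG1 gave 2.57 (adjusted p = 0.0430), SQLE -0.49 (0.0471), PMVK -0.46 (0.0816), SCD 0.50 (0.113) and NSDHL -0.34 (0.188). For SCD and NSDHL, a difference between the lines was thus not shown. This comparison uses the same 12 libraries as both comparisons above, and the comparison of the CD44 WT lines that follows shares 6 of them, so they are not separate evidence.

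CD44 WT cells of the lines were compared next. Of 37 members 23 were called between Hs578T CD44 WT and MDA-MB-231 CD44 WT, 12 higher and 11 lower in Hs578T, where 61.5% of all genes were called, 32.2% higher and 29.4% lower. With library size as the only scaling, the split was 15 higher and 7 lower, and the median of all genes moved from 0.04 to 0.16. The median log2 difference of the members was 0.07.

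Of the regulators, 3 were higher in Hs578T, namely SREBF1 (log2 difference 1.93), INSIG1 (1.25) and SREBF2 (0.29). For SREBF1 the 3 Hs578T libraries lay at 397 to 481 CPM and those of MDA-MB-231 at 111 to 121 CPM. Among the enzymes, SQLE (2.29), HMGCS1 (1.65), which condenses acetyl-CoA units into the mevalonate precursor, FDFT1 (1.52), which makes squalene, SCD (1.48), ACSS2 (1.25) and MSMO1 (0.64) were higher in Hs578T. All 3 LXR targets were also higher there, ABCG1 by 4.97, ABCA1 by 1.90 and MYLIP by 0.83. The adjusted p of these 12 members ranged up to 0.00599, for SREBF2.

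Lower in Hs578T were EBP (-5.82), FADS2 (-4.50), TM7SF2 (-1.89), NPC2 (-1.01), ELOVL6 (-0.81), SC5D (-0.81), CYP51A1 (-0.76), NSDHL (-0.46), NPC1 (-0.40) and ACAT2 (-0.36), together with ACACA, whose counts are not read here. EBP, the sterol isomerase mutated in a chondrodysplasia, stood at 1.66, 0.823 and 0.254 CPM in Hs578T CD44 WT (3 to 24 counts) and at 64.2, 54.9 and 45.0 CPM in MDA-MB-231. Its neighbours FTSJ1 and TBC1D25, chosen after their values were seen, were also lower in Hs578T, with means of 32.7 and 12.8 CPM in Hs578T CD44 WT and 77.2 and 25.4 CPM in MDA-MB-231 CD44 WT. Their part in the result for EBP was not tested. EBP was below 1 CPM in all 3 CD44 KO libraries of Hs578T.

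Some of these calls depended on 1 library. SREBF2 lost its call without replicate 1 (adjusted p = 0.0188) or 2 (0.0275) of Hs578T CD44 WT, or without replicate 1 (0.0124) or the unnumbered library (0.0169) of MDA-MB-231 CD44 WT. NPC1 lost it without any of replicates 1, 2 and 3 of Hs578T CD44 WT (0.0139, 0.0229 and 0.0228), replicate 3 of MDA-MB-231 CD44 WT (0.0299) or the unnumbered library (0.0250). CYP51A1 lost it without replicate 2 of Hs578T CD44 WT (0.0174), replicate 3 of MDA-MB-231 CD44 WT (0.0204) or the unnumbered library (0.0183), and ACAT2 without replicate 1 of Hs578T CD44 WT (0.0172). LSS (0.000316) and SCAP (0.00229) gained a call without replicate 1 of MDA-MB-231 CD44 WT, and MVK (0.00556) without the unnumbered library.

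FADS2, the delta-6 desaturase, stood at 23.2, 26.8 and 37.7 CPM in Hs578T CD44 WT and 617, 708 and 654 CPM in MDA-MB-231 CD44 WT. Its neighbour FADS1 overlaps it on the opposite strand of chromosome 11 and reads were counted by strand. FADS1 was not called between the lines (0.34, adjusted p = 0.0313). Per kb of exon, the level of FADS1 was 16.6 to 22.1 times that of FADS2 in Hs578T CD44 WT and 0.605 to 0.770 times in MDA-MB-231 CD44 WT.

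Per kb of exon, SCD led in both lines, at 838 ± 29.5 CPM per kb in Hs578T CD44 WT and 301 ± 43.1 in MDA-MB-231 CD44 WT (SD, n = 3). In Hs578T it was followed by INSIG1 (180) and HMGCS1 (179), which differed by less than their SD, then ACLY (158) and FASN (146), which also differed by less than the SD of ACLY. In MDA-MB-231 ACLY (151) and FASN (122) came next, then FDPS (81.2) and INSIG1 (75.8), which differed by less than the SD of FDPS. ABCA1 was among the lowest members in both, at 0.307 and 0.0827 CPM per kb.

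**Figure D4:**
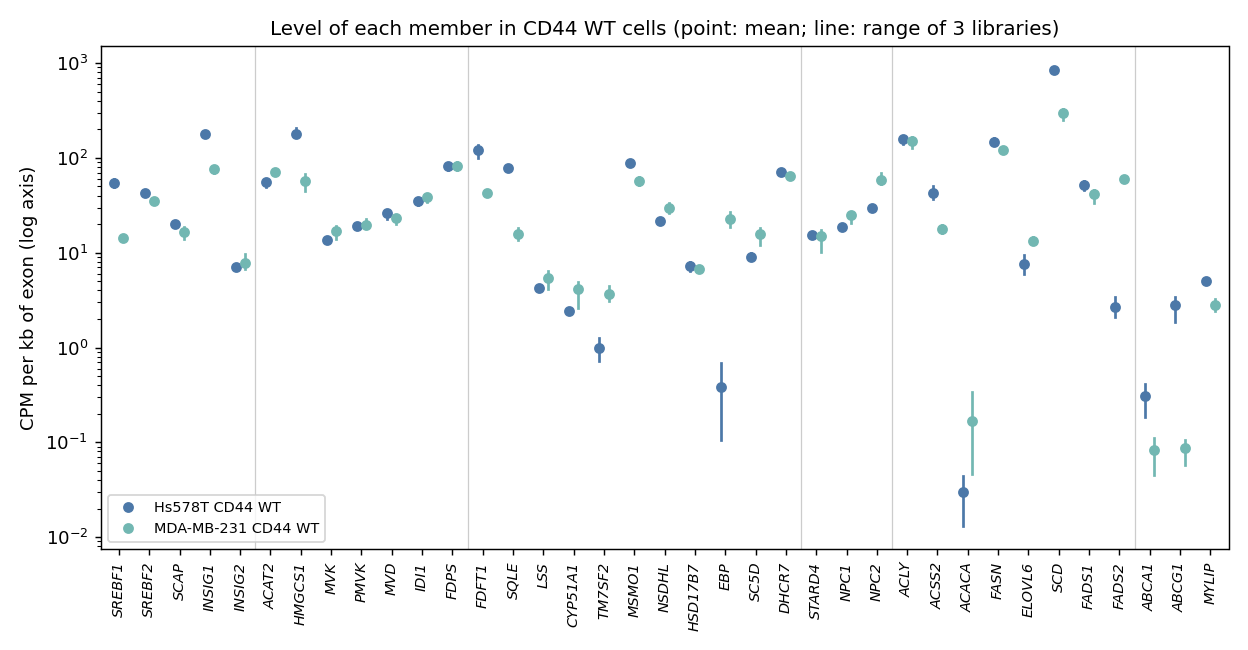
Level of each member in CD44 WT cells as CPM per kb of exon (log axis), grouped by role, with the mean as a point and the range of 3 libraries as a line, for Hs578T and MDA-MB-231. EBP and FADS2 lie far lower, and SQLE and ABCG1 higher, in Hs578T, and SCD is the top member of both lines.

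Of 34 other lipid genes, all tested, 3 were called in Hs578T, 2 higher and 1 lower, where 7.51% of all genes were called. SCARB1, the receptor that takes up cholesterol from high-density lipoprotein, stood at 367, 411 and 441 CPM in CD44 WT and 634, 637 and 660 CPM in CD44 KO (log2 fold change 0.66, adjusted p = 0.000773), and it did not overlap. TMEM97, a sterol-responsive membrane protein, stood at 58.3, 66.5 and 68.1 CPM and at 44.4, 35.2 and 44.9 CPM (-0.63, adjusted p = 0.00108). ACACB, the mitochondrial acetyl-CoA carboxylase, gave 0.70 (adjusted p = 0.00844).

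In MDA-MB-231 only ACACB was called among these 34, where 4.62% of all genes were called. It moved in the other direction (-0.83, adjusted p = 0.00521), from 10.6, 10.8 and 13.5 CPM to 6.27, 6.14 and 7.21 CPM. In Hs578T the CD44 WT libraries lay at 6.94 to 9.99 CPM and the CD44 KO libraries at 12.9 to 15.9 CPM. The difference of the effects was called for ACACB (1.54, adjusted p = 0.000677) and SCARB1 (0.96, adjusted p = 0.00129), where 4.12% of all genes were called. ACACB lost the call in Hs578T without replicate 2 or 3 of CD44 WT, replicate 1, 2 or 3 of CD44 KO, replicate 3 of MDA-MB-231 CD44 WT or replicate 1 or 2 of MDA-MB-231 CD44 KO, at adjusted p from 0.0107 to 0.0482. It also lost that call with each line fitted alone (0.0111), with the replicate number as a block (0.0111) and with the block by library numbers (0.0104). In MDA-MB-231 it lost the call without replicate 2 of Hs578T CD44 WT, replicate 3 of Hs578T CD44 KO, replicate 3 or the unnumbered library of MDA-MB-231 CD44 WT or any MDA-MB-231 CD44 KO library, at adjusted p from 0.0104 to 0.0352, with each line fitted alone (0.0202) and with the replicate number as a block (0.0459).

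Other markers moved with CD44 KO. VIM rose in both lines (log2 fold change 0.38, adjusted p = 0.00386, in Hs578T and 0.43, adjusted p = 0.00253, in MDA-MB-231). PTPRC, a leukocyte gene, rose in Hs578T from 0.254 to 0.576 CPM to 3.21 to 4.81 CPM (3.33, adjusted p = 3.19e-05). PECAM1, an endothelial gene, stood at 10.6 to 12.8 CPM in Hs578T CD44 WT and 12.8 to 14.8 CPM in CD44 KO. Of the proliferation genes MKI67, TOP2A, PCNA, MCM2, CCNB1 and CDK1, none was called in Hs578T, and CDK1 rose in MDA-MB-231 (0.60, adjusted p = 0.000619). The part of these shifts in the members' values was not tested.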

How the data were processed

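RNA of the 12 libraries was sequenced on 1 lane as paired reads of 50 bp. The authors aligned with HISAT2 2.1.0 to GRCh38, assigned fragments with featureCounts 1.6.2 on GENCODE 28 by strand (mapping quality at least 10), and deposited whole-number counts for 58381 genes, not normalized. Genes were kept above 1 CPM in 2 or more libraries and from 300 nt of exon upward, which left 15836. The stated length filter keeps shorter genes and was read as their removal. All 12 libraries were fitted in edgeR 4.0.16 (R 4.3.3) as 4 group means with TMM scaling and the quasi-likelihood test. The spread was estimated over all groups together. Over all genes tested, the median SD relative to the mean was 10.0% in Hs578T CD44 WT and 8.99% in Hs578T CD44 KO. It was 15.2% in MDA-MB-231 CD44 WT and 10.1% in MDA-MB-231 CD44 KO. Calls took adjusted p (Benjamini-Hochberg) up to 0.01. The deposited name of 1 MDA-MB-231 CD44 WT column matches labels of both replicates 2 and 3, so this library carries no number. Members and lists were chosen with earlier results of these data known. Members called for a CD44 KO effect or for its difference between lines are given in full, and the others by values or counts. DESeq2 1.42.0, other scalings, filters, blocks and left-out libraries were alternatives. In simulated counts of 15836 genes, each gene was given its mean over all 12 libraries of both lines. Changes were put into the Hs578T CD44 KO libraries for some genes, none with a low mean. Of 66 genes changed by 0.5 (log2) 25.8% were called, and of 67 changed by 1, 94.0%. These rates do not cover weakly counted members. No replicates agreed within sampling noise. Promoters came from RefSeq (GRCh38.p14).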

Additional observations from a re-analysis of the deposited data

Results flagged for a closer look

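FASN is listed because its CD44 KO effect differed between the lines by the test of the difference itself. The difference was 0.93 on the log2 scale, Hs578T minus MDA-MB-231 (adjusted p = 0.00196, edgeR's quasi-likelihood test), from 0.69 in Hs578T, higher in 3 of 3 CD44 KO libraries, and -0.24 in MDA-MB-231, lower in 3 of 3. Groups of 3 libraries were not tested for outliers.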

How the results depend on the processing

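FASN was called in Hs578T under every alternative run, and no member was called in MDA-MB-231 under any. For the difference of the effects, FASN was called under every alternative that gave it. Fitting each line alone gives no such difference. In Hs578T, 3 members were called, against 5 with DESeq2, 6 without the filter on low counts, 6 with each line fitted alone and 6 at a threshold of 0.05. With 1 library left out the count was 1 to 5. It was 1 without replicate 1 or 2 of Hs578T CD44 WT or replicate 1 or 2 of Hs578T CD44 KO, and 5 without replicate 1 of MDA-MB-231 CD44 WT. For the difference, 1 member was called, against 2 with DESeq2, 4 without the filter, 2 with robust estimation and 4 at 0.05. Of the 34 other lipid genes, 3 were called in Hs578T, against 6 without the filter, 6 at 0.05 and 2 to 5 with 1 library left out (5 without replicate 1 of MDA-MB-231 CD44 WT). In MDA-MB-231 1 was called, against 4 with DESeq2, 3 without the filter, 0 with each line alone and 4 at 0.05. With 1 library left out it was 0 to 2, being 2 without replicate 1 of MDA-MB-231 CD44 WT and 0 without replicate 2 of Hs578T CD44 WT, replicate 3 of Hs578T CD44 KO, replicate 3 of MDA-MB-231 CD44 WT or any MDA-MB-231 CD44 KO library. For the difference 2 were called, against 7 with DESeq2, 6 without the filter, 8 at 0.05 and 2 to 4 with 1 library left out, being 4 without replicate 1 or the unnumbered library of MDA-MB-231 CD44 WT. Over all genes, calls went from 1189 to 1984 in Hs578T, 731 to 1370 in MDA-MB-231 and 653 to 1373 for the difference without the filter. DESeq2 called 1553 in Hs578T, 1138 in MDA-MB-231 and 1179 for the difference. Fitted alone, Hs578T gave 1525 of 14655 genes and MDA-MB-231 gave 315 of 13609. With 1 library left out, calls over all genes ranged from 605 to 1685 in Hs578T, 355 to 763 in MDA-MB-231 and 396 to 804 for the difference. Counts over all genes at 0.05 are not given here. The cause was not tested. Low counts limit what can be read of EBP in Hs578T, ABCG1 in MDA-MB-231 and ACACA in both.

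In Hs578T the replicate numbers showed no pairing of CD44 WT with CD44 KO libraries. Deviations from the group means of same-numbered CD44 WT and CD44 KO libraries correlated at -0.06, 0.02 and -0.10 in Hs578T and at 0.01 and 0.16 in MDA-MB-231. With the replicate number as a block (11 libraries), 3 members were called in Hs578T, 0 in MDA-MB-231, 1 for the difference and 19 between the CD44 WT lines, and 436 genes in all were called in MDA-MB-231. The running library numbers in the labels fall into sets of 4 with 1 library of each group. Same-numbered CD44 WT and CD44 KO libraries fall in the same set in MDA-MB-231 and in different sets in Hs578T. Within these sets 17 of 18 pairs correlated above 0 (median 0.06, highest 0.16), against 13 of 36 other pairs (median -0.04), and the labels do not say what a set shares. With these sets as a block, the member counts were 4, 0, 2 and 23, and the member added in Hs578T and for the difference was SREBF1.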
